A study of Mus musculus with 18 samples.

Results

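The genes described here make, use and recycle S-adenosylmethionine in E14 mouse embryonic stem cells that were briefly deprived of arginine or leucine. They are 9 of the 55471 gene identifiers in the count tables: Mat2a, Mat2b, Mettl16, Ahcy, Ahcyl1, Mtr, Mtrr, Mtap and Amd1. They were chosen by symbol, through the Ensembl identifiers of GENCODE vM21, and all 9 passed the filter on low counts. The choice was made with earlier results of these libraries known. Mat2a had been singled out for its lower level in arginine-starved Gcn cells, so its differences that involve those libraries are given as a description with no p-value.

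E14 is an established mouse embryonic stem cell line. It was used as wild type (Wt) and as an Eif2ak4-/- knock-out (Gcn), which lacks GCN2, a kinase that senses amino acid shortage. Each genotype was kept unstarved, without arginine for 3 h (Arg) or without leucine for 3 h (Leu), and every group had 3 libraries of poly(A) RNA, 18 in all. All groups shared a culture medium of the SILAC type with dialyzed serum, glucose, lysine and leukemia inhibitory factor, and the unstarved groups received it with every amino acid. The labels do not say that the replicates were separate cultures, nor how many clones the knock-out line comprises, so p-values measure the spread between these libraries, which may be technical.

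Methionine adenosyltransferase joins methionine to ATP to make S-adenosylmethionine, the methyl donor for DNA, RNA, histones and many small molecules. Each methyl transfer leaves S-adenosylhomocysteine, which is split to homocysteine, and methionine synthase remethylates homocysteine to methionine with a cobalamin cofactor. A side branch decarboxylates S-adenosylmethionine for polyamine synthesis, and its methylthioadenosine by-product is salvaged back to methionine. The enzyme METTL16 methylates hairpins in the 3′ untranslated region (UTR) of the Mat2a transcript, and when S-adenosylmethionine is scarce it stays bound there and favours splicing of the last Mat2a intron.

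The Mat2a sites are shown because they link the member with the widest range of levels to Mettl16, another member. The 3′ UTR of the principal Mat2a transcript is 1494 bases long and lies on the minus strand of chromosome 6 in GRCm38. A search of the transcript strand for the METTL16 nonamer TACAGAGAA and for the single-base variant TACAGAAAA found 6 matches. They are printed 5′ to 3′ with 9 bases on either side, and the capitals mark the nonamer.

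site 1: ggcgtaggtTACAGAGAAgccttcaag
site 2: cttgtgataTACAGAGAAgtcacaggg
site 3: tggtgtagcTACAGAGAAaccagcttc
site 4: tggcgtaagTACAGAGAAgccatcacc
site 5: aaggtgtccTACAGAAAAaccttgggt
site 6: ctggtgtggTACAGAGAAgccagcttg

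Site 1 is at chr6:72434236-72434262, its nonamer starts at base 40 after the stop codon, and it stands alone at that end. The nonamer of site 2 (chr6:72433452-72433478) starts at base 824, that of site 3 (chr6:72433273-72433299) at base 1003 and that of site 4 (chr6:72433158-72433184) at base 1118. In site 5 (chr6:72433047-72433073) the variant starts at base 1229, and in site 6 (chr6:72432939-72432965) the nonamer starts at base 1337. So 5 of the 6 matches lie in the distal part of the UTR. Among 6645 mouse 3′ UTRs at least as long, read over their first 1494 bases, 155 (2.3%) held TACAGAGAA, 121 (1.8%) held TACAGAAAA and 273 (4.1%) held either. Mat2a was the 1 UTR with as many as 6. Because METTL16 is known to act on Mat2a hairpins with this nonamer, that count is a description and not a test. A match is a string of letters; these poly(A) counts do not measure its methylation or any binding.

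**Figure D1:**
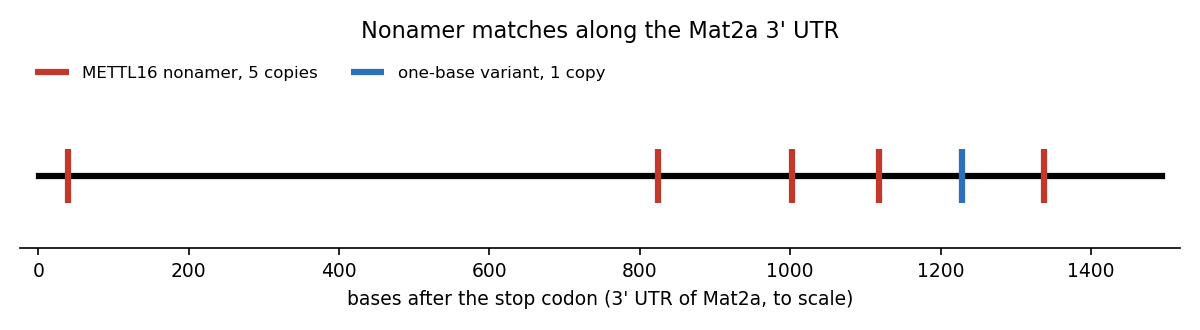
Map of the Mat2a 3′ UTR to scale, with bases after the stop codon on the x axis and a tick for each nonamer match (5 red ticks for TACAGAGAA, 1 blue tick for TACAGAAAA). The first match is at base 40, and the other 5 fall between bases 824 and 1337.

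Library depth ranged from 14.8 to 38.8 M counts, and values are given as CPM, counts per 1 M counts of a library after its total was scaled by TMM. Eif2ak4, the deleted gene, was at 27.0 to 33.4 CPM in the Wt libraries and at 4.04 to 6.37 CPM in the Gcn libraries. The unstarved Gcn level was 6.10-fold lower (adjusted p = 1.73e-12). The 8 embryonic stem cell markers summed to 6340 to 8760 CPM and none was at 0. They moved with the groups, from 6340 to 6960 CPM in Wt Arg, the lowest, to 8240 to 8760 CPM in Gcn Leu, the highest. Single markers went both ways: between Wt Unstarved and Gcn Leu the mean went from 310 to 721 CPM for Nanog and from 2585 to 2218 CPM for Pou5f1. Markers of other cells were low and also moved with the groups. The 8 fibroblast markers, 3 of them under 1 CPM throughout, summed to 17.0 to 26.6 CPM in Wt and 7.06 to 11.2 CPM in Gcn libraries. The 3 neural markers summed to 13.7 to 14.4 CPM in Wt Unstarved, the lowest group, and 28.3 to 39.8 CPM in Gcn Arg, the highest. The 3 mesoderm markers summed to 7.73 to 11.0 CPM in Wt Unstarved and 2.26 to 2.69 CPM in Gcn Leu, and the 4 endoderm markers to 5.84 to 16.6 CPM. The part of any of these markers in the results was not tested. Mitochondrial transcripts took 2.04% to 2.99% of the counts. Gm42418, a gene that overlaps ribosomal RNA, took 0.224% to 1.39% in Wt and 0.813% to 3.97% in Gcn libraries, with 0.224% to 1.21% in Wt Unstarved and 1.503% to 3.97% in Gcn Unstarved, and its part in the differences was not tested. The 3 Gcn libraries numbered 1 stood apart from the other 6 on the second principal component of their genotype (19.8% of the variance), and calls that were lost without them are given beside the result.

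Reads of some members can come from other genes. Of the 43-base windows of the principal Ahcy transcript, 77.9% also occur in transcripts of other genes, chiefly the processed copy Gm4737. For Amd1 the share is 89.2%, chiefly the copy Amd2, so the values of Ahcy and Amd1 are uncertain. For Mat2a the share is 16.3%, shared with the copy Gm9523 and with Particl, a transcript on the opposite strand across the Mat2a start. The other 6 members share at most 0.5%.

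Per kilobase of exon, Mat2a was the most abundant member in unstarved Wt cells at 123 CPM per kb ± 7.37 (SD, n = 3). Mat2b, its regulatory subunit, followed at 25.1 CPM per kb and Mtap at 24.8, which is within their spread (SD 0.527 and 1.37). Mettl16 was at 15.4, Amd1 at 15.3, Ahcyl1 at 13.8, Ahcy at 13.6 and Mtrr at 11.0 CPM per kb. The places of Ahcy and Amd1 in this order are uncertain because of their shared windows. Gm4737, the copy of Ahcy, was at 35.0 CPM per kb in the same libraries, and Amd2, the copy of Amd1, at 0.438. Mtr was the lowest at 4.97 CPM per kb ± 0.338 (SD, n = 3). The liver isoform gene Mat1a did not exceed 0.282 CPM in any library. Across the 6 group means, Mat2a varied 4.02-fold, Ahcyl1 1.59-fold, Amd1 1.56-fold, Mettl16 1.51-fold, Ahcy and Mtr 1.47-fold each, Mtap 1.36-fold, Mtrr 1.24-fold and Mat2b 1.14-fold.

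In arginine-starved Wt cells, 7 of the 9 members changed at an adjusted p under 0.05, against 40.9% of all genes tested. Mat2a, Mettl16, Amd1 and Mtap fell (20.0% of all genes fell), and Mtr, Mtrr and Mat2b rose (20.9% rose). In leucine-starved Wt cells 4 of 9 members changed against 29.6% of genes, and all 4 fell (14.1% of genes fell and 15.5% rose): Mat2a, Mettl16, Ahcyl1 and Mtap. These are edgeR's quasi-likelihood tests with Benjamini-Hochberg adjustment over all genes, as are the adjusted p-values below unless another test is named.

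In arginine-starved Gcn cells 3 of the 8 members other than Mat2a changed against 28.0% of genes, and all 3 fell (13.7% of genes fell and 14.3% rose): Mettl16, Ahcy and Amd1. With the replicate number as a block, that is, comparing libraries of the same number, 4 fell and 2 rose there. In leucine-starved Gcn cells 4 of 9 members changed against 21.8% of genes, and Mat2a, Mettl16, Ahcyl1 and Mtap fell (10.0% of genes fell and 11.7% rose). The 2 comparisons of a genotype share its unstarved libraries, so they are not independent. The shares of members that changed were 77.8%, 44.4%, 37.5% and 44.4% in the order given, and they are set beside the shares of all genes as a description.

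In Wt cells the median log2 change of the members was -0.18 without arginine and -0.21 without leucine, and in Gcn cells it was -0.18 and -0.30. Over all genes tested the same medians were -0.01, 0.01, -0.01 and 0.00. Mat2a was the lowest member in each comparison and Mettl16 among the 3 lowest. Mat2a had been singled out for its level in Gcn Arg. Its rank there is a description, and the Gcn Arg median of the members includes it.

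**Figure D2:**
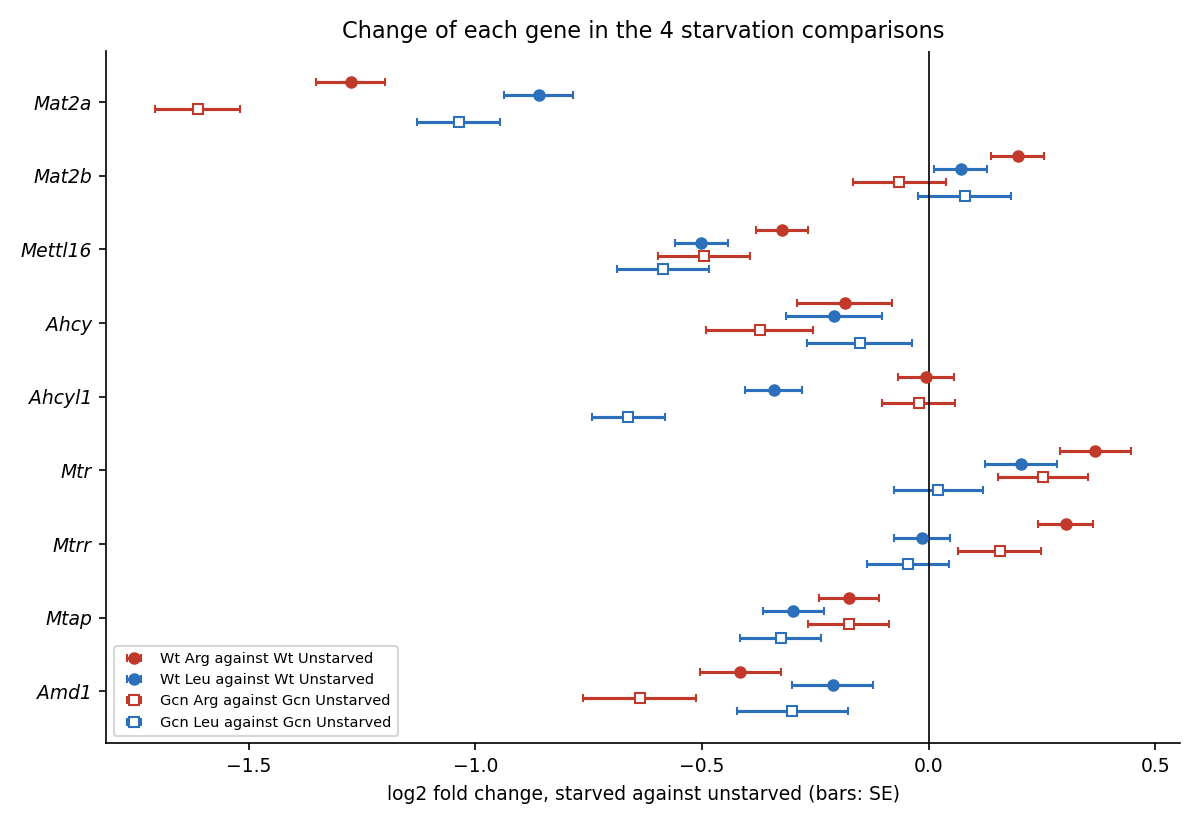
Log2 fold change of each member (x axis) in the 4 starvation comparisons, with points for the estimate and bars for the standard error; filled red and blue points are Wt Arg and Wt Leu, open ones Gcn Arg and Gcn Leu. Mat2a lies between -1.61 and -0.86, and no other member lies below -0.66.

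Mat2a (chr6:72432799-72439558, minus strand) encodes the catalytic subunit of methionine adenosyltransferase outside the liver. In Wt cells it stood at 571, 567 and 512 CPM unstarved, at 246, 224 and 211 CPM without arginine and at 328, 306 and 277 CPM without leucine. The 3 groups did not overlap, and arginine-starved libraries were the lowest. The level fell 2.42-fold without arginine (log2 -1.27 ± 0.08 SE, adjusted p = 3.02e-09) and 1.82-fold without leucine (log2 -0.86 ± 0.08, adjusted p = 5.72e-07), and the leucine-starved group was 1.33-fold above the arginine-starved one (adjusted p = 0.00210). In such bulk RNA, fewer transcripts per cell and fewer cells that hold the transcript cannot be told apart.

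In Gcn cells Mat2a followed the same order at a lower level. It was at 417, 410 and 436 CPM unstarved, at 136, 128 and 147 CPM without arginine and at 204, 187 and 220 CPM without leucine. Again no group of this genotype overlapped another. Without arginine the difference was 3.06-fold (log2 -1.61 ± 0.09), which is the value that singled out the gene. Without leucine the level fell 2.05-fold (log2 -1.04 ± 0.09, adjusted p = 1.07e-05), a comparison that shares the unstarved libraries with the first. Leucine-starved Gcn libraries were 1.49-fold above arginine-starved ones. With scaling by library size alone the Gcn Arg difference was -1.50 on the log2 scale.

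The unstarved genotypes also differed in Mat2a: the 3 Gcn libraries, at 410 to 436 CPM, lay below the 3 Wt libraries, at 512 to 571 CPM (log2 -0.39, 95% interval -0.56 to -0.21, adjusted p = 0.000984). After leucine withdrawal the Gcn change less the Wt change was -0.19 on the log2 scale, with a 95% interval of -0.43 to 0.06 (adjusted p = 0.516). After arginine withdrawal the corresponding difference was -0.34, given as a description. Particl, which overlaps the Mat2a start on the other strand, rose from 1.00 to 2.03 CPM in Gcn Arg with overlapping groups (log2 0.99, adjusted p = 0.0320). In Wt its mean was 1.68 CPM unstarved and 2.15 CPM without arginine, and those groups did not overlap. Particl had only 19 to 70 counts in a library. The sources used here do not give the counting strand, so reads of Particl and Mat2a cannot be told apart with certainty.

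**Figure D3:**
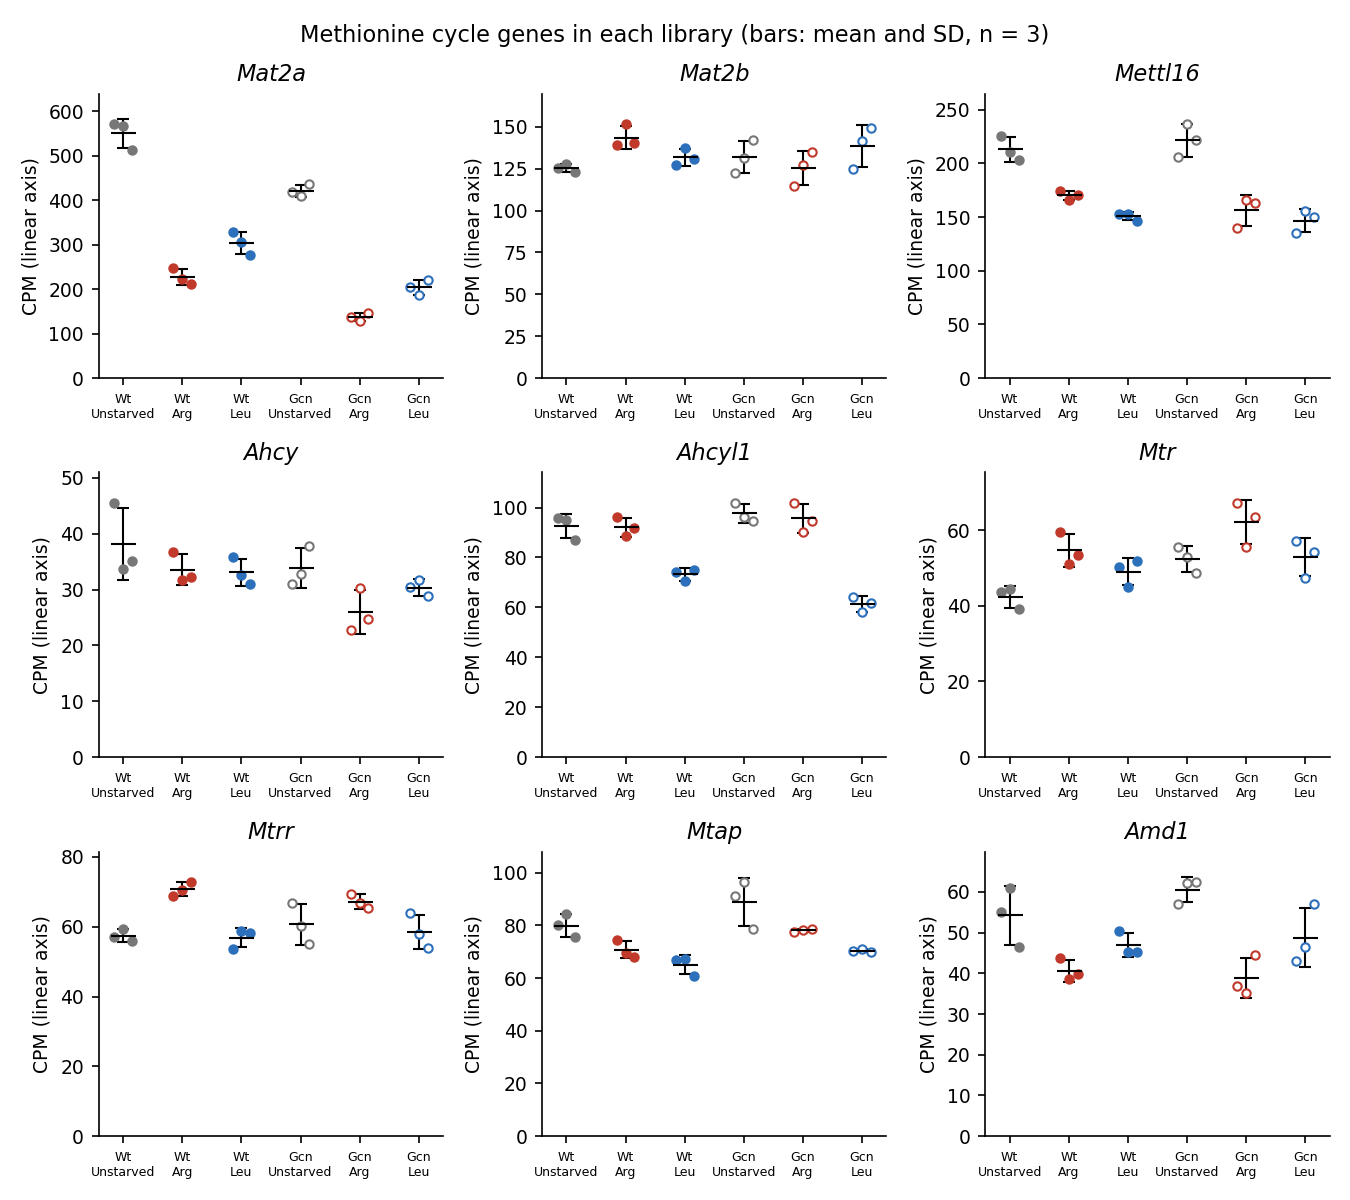
CPM of the 9 members in each of the 18 libraries, 1 panel a gene on a linear axis from 0; points are libraries (filled Wt, open Gcn; grey unstarved, red Arg, blue Leu), and the bars are the mean and SD of 3. Within each genotype the Mat2a groups are fully separated, while Wt Arg (211 to 246 CPM) and Gcn Leu (187 to 220 CPM) overlap. Mat2a runs from 571 CPM in Wt Unstarved down to 128 CPM in Gcn Arg, and Mat2b stays between 115 and 152 CPM.

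Mettl16 (chr11:74770830-74828525, plus strand), the methyltransferase known to act on hairpins with the nonamer printed above, fell in all 4 comparisons. Its Wt libraries were at 226, 210 and 203 CPM unstarved, 174, 166 and 171 CPM without arginine and 153, 153 and 146 CPM without leucine. The 3 Wt groups did not overlap, and here the leucine-starved group was the lowest, unlike for Mat2a. The falls were 1.25-fold without arginine (log2 -0.32 ± 0.06, adjusted p = 0.000277) and 1.42-fold without leucine (log2 -0.50 ± 0.06, adjusted p = 9.06e-06).

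In Gcn cells Mettl16 was at 206, 237 and 222 CPM unstarved, 140, 166 and 163 CPM without arginine and 135, 155 and 150 CPM without leucine. Both starved groups lay below every unstarved library and overlapped each other. The fall was 1.41-fold without arginine (log2 -0.50 ± 0.10, adjusted p = 0.00246), and without leucine the log2 change was -0.59 ± 0.10 (adjusted p = 0.00115). The unstarved genotypes differed by 0.06 (95% interval -0.10 to 0.22), and the changes differed between genotypes by -0.18 (-0.41 to 0.05) for arginine and -0.09 (-0.32 to 0.13) for leucine, none of which passed the test.

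Mat2b (chr11:40679314-40695203, minus strand), the regulatory subunit that binds the Mat2a product, rose in Wt Arg, where Mat2a fell. In Wt cells it was at 126, 128 and 123 CPM unstarved, 139, 152 and 140 CPM without arginine and 127, 137 and 131 CPM without leucine. Arginine-starved libraries were the highest, with a rise of 1.15-fold (log2 0.20 ± 0.06, adjusted p = 0.0121). That call was lost without Wt_Arg replicate 2 (log2 0.16, adjusted p = 0.0746). The leucine difference was 0.07 (95% interval -0.05 to 0.19).

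Gcn libraries ran from 115 to 149 CPM in Mat2b, and their 3 groups overlapped. Without arginine the Gcn difference was -0.06 (95% interval -0.29 to 0.16) and without leucine 0.08 (-0.14 to 0.30). The Gcn arginine change less the Wt one was -0.27 (95% interval -0.50 to -0.04, adjusted p = 0.221). It passed the test with the replicate block (-0.27, adjusted p = 0.00495).

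Ahcyl1 (chr3:107663118-107696560, minus strand), a relative of adenosylhomocysteinase that binds the IP3 receptor, differed between the 2 withdrawn amino acids. In Wt cells it was at 95.7, 95.0 and 87.1 CPM unstarved, 96.1, 88.4 and 91.8 CPM without arginine and 74.1, 70.4 and 75.1 CPM without leucine. Leucine-starved libraries lay below all others, while the arginine-starved and unstarved ones overlapped. The fall without leucine was 1.27-fold (log2 -0.34 ± 0.06, adjusted p = 0.000600), and without arginine the difference was -0.01 (95% interval -0.14 to 0.12).

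Gcn cells had 102, 96.3 and 94.8 CPM unstarved, 102, 90.3 and 94.7 CPM without arginine and 64.2, 58.1 and 61.8 CPM without leucine. The leucine-starved libraries again lay below all others. Without leucine Ahcyl1 fell 1.58-fold (log2 -0.66 ± 0.08, adjusted p = 9.78e-05), and without arginine the difference was -0.02 (-0.20 to 0.15). Leucine-starved cells were also below arginine-starved cells directly, by log2 -0.34 in Wt (adjusted p = 0.00239) and -0.64 in Gcn (adjusted p = 0.000366).

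For Ahcyl1 the Gcn leucine change less the Wt one was -0.33 (95% interval -0.54 to -0.12), which did not pass the test over all genes (adjusted p = 0.135). DESeq2 called it (adjusted p = 0.0409). For arginine the corresponding difference was -0.02 (-0.23 to 0.18).

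Ahcy (chr2:155059310-155074497, minus strand) encodes adenosylhomocysteinase, which splits S-adenosylhomocysteine. Its Wt libraries were at 45.5, 33.7 and 35.2 CPM unstarved, 36.7, 31.7 and 32.3 CPM without arginine and 35.8, 32.6 and 31.0 CPM without leucine. Replicate 1 of Wt Unstarved was the highest, and the groups overlapped. Neither Wt difference passed the test, at -0.18 (95% interval -0.41 to 0.04) without arginine and -0.21 (-0.43 to 0.02) without leucine. The arginine difference passed with the replicate block (adjusted p = 0.0203), and the leucine difference passed without Wt_Unstarved replicate 2 (log2 -0.30, adjusted p = 0.0488).

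In Gcn cells Ahcy was at 31.0, 32.7 and 37.9 CPM unstarved, 22.8, 30.3 and 24.8 CPM without arginine and 30.5, 31.7 and 28.8 CPM without leucine. The arginine-starved libraries lay below the unstarved ones (log2 -0.37 ± 0.12, adjusted p = 0.0298). This call was lost with library-size scaling (log2 -0.26, adjusted p = 0.121), without Gcn_Arg replicate 1 or 3 (-0.28 and -0.34, adjusted p = 0.114 and 0.0936) and without Gcn_Unstarved replicate 2 or 3 (-0.39 and -0.29, adjusted p = 0.0660 and 0.124). Without the 3 Gcn libraries numbered 1 it was also lost (-0.34, adjusted p = 0.0532). Gm4737, the copy that shares most of its sequence, fell from 63.2 to 51.4 CPM in the same comparison (log2 -0.29, adjusted p = 0.0151). That call was lost without Gcn_Arg replicate 1 or 3 or Gcn_Unstarved replicate 1 (adjusted p up to 0.0569), without the 3 Gcn libraries numbered 1 and with library-size scaling. The sum of both went from 97.1 CPM ± 4.39 to 77.4 CPM ± 4.71 (SD, n = 3). In Wt cells that sum was 111 CPM ± 3.59 unstarved, 101 CPM ± 5.82 without arginine and 101 CPM ± 0.991 without leucine. A lower mean sum was thus not confined to Gcn Arg, and the sums were not tested.

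Mtr (chr13:12182712-12258113, minus strand) encodes methionine synthase, the step that remakes methionine. In Wt cells it was at 43.6, 44.4 and 39.1 CPM unstarved, 59.6, 51.1 and 53.3 CPM without arginine and 50.2, 45.0 and 51.7 CPM without leucine. Every starved library lay above every unstarved one. Without arginine Mtr rose 1.29-fold (log2 0.37 ± 0.08, adjusted p = 0.00126). Without leucine the difference was 0.20 (95% interval 0.04 to 0.37, adjusted p = 0.0633), and it passed with library-size scaling (0.23, adjusted p = 0.0456) and without Wt_Leu replicate 2 (0.26, adjusted p = 0.0321).

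Unstarved Gcn cells already had more Mtr, at 55.4, 53.0 and 48.7 CPM, than unstarved Wt cells (log2 0.31 ± 0.09, adjusted p = 0.0143). That call was lost without Wt_Unstarved replicate 3 (0.25, adjusted p = 0.0814) and without Gcn_Unstarved replicate 1 (0.26, adjusted p = 0.0619). Arginine-starved Gcn libraries were at 67.2, 55.7 and 63.5 CPM, just above the unstarved ones, with a difference of 0.25 (95% interval 0.04 to 0.47, adjusted p = 0.0733). That difference passed with the replicate block (adjusted p = 0.00818), with library-size scaling (0.37, adjusted p = 0.0147) and without Gcn_Arg replicate 2 (0.33, adjusted p = 0.0411). Leucine-starved Gcn libraries overlapped the unstarved ones at 57.1, 47.3 and 54.3 CPM, a difference of 0.02 (-0.19 to 0.23).

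Mtrr (chr13:68560780-68582149, minus strand) encodes the reductase that reactivates methionine synthase. It was at 57.1, 59.4 and 55.8 CPM in unstarved Wt cells, 68.7, 70.6 and 72.8 CPM without arginine and 53.6, 58.7 and 58.3 CPM without leucine. The arginine-starved group stood apart, above both others, which overlapped. The rise without arginine was 1.23-fold (log2 0.30 ± 0.06, adjusted p = 0.000743), the leucine difference was -0.01 (-0.14 to 0.11), and leucine-starved cells were below arginine-starved ones (log2 -0.32 ± 0.06, adjusted p = 0.00295).

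In Gcn cells Mtrr was at 66.8, 60.1 and 55.0 CPM unstarved, 69.5, 66.8 and 65.3 CPM without arginine and 63.8, 57.9 and 54.0 CPM without leucine. The spread among unstarved libraries was wider than in Wt cells, and the arginine-starved group overlapped them. The arginine difference was 0.16 (95% interval -0.04 to 0.35, adjusted p = 0.225). It passed with the replicate block (adjusted p = 0.0360) and with library-size scaling (0.27, adjusted p = 0.0441). The arginine changes differed between the genotypes by -0.12 for Mtr (-0.39 to 0.15) and -0.15 for Mtrr (-0.38 to 0.08), and neither difference passed the test.

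Mtap (chr4:89137122-89181081, plus strand) encodes methylthioadenosine phosphorylase, the entry to methionine salvage. Wt libraries were at 80.1, 84.3 and 75.4 CPM unstarved, 74.3, 69.7 and 68.2 CPM without arginine and 66.9, 67.2 and 61.0 CPM without leucine. Starved libraries were lower, with the leucine-starved ones lowest and no overlap. Without leucine Mtap fell 1.23-fold (log2 -0.30 ± 0.07, adjusted p = 0.00290). Without arginine it fell by 0.18 on the log2 scale (adjusted p = 0.0445), and this call did not hold without Wt_Unstarved replicate 1 or 2 (-0.18 and -0.14, adjusted p = 0.0838 and 0.124) nor without Wt_Arg replicate 2 or 3 (-0.17 and -0.15, adjusted p = 0.119 and 0.152). It was also lost with library-size scaling (-0.14, adjusted p = 0.0964) and when genes of low counts were kept (-0.18, adjusted p = 0.0636).

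In Gcn cells Mtap was at 91.0, 96.5 and 78.7 CPM unstarved, 77.4, 78.3 and 78.5 CPM without arginine and 70.5, 70.9 and 69.9 CPM without leucine. Both starved groups were tight and lay below the unstarved one, narrowly so without arginine. The fall without leucine was 1.25-fold (log2 -0.33 ± 0.09, adjusted p = 0.0182), lost with library-size scaling (-0.24, adjusted p = 0.0604), without Gcn_Unstarved replicate 2 (-0.27, adjusted p = 0.0922) and without the Gcn libraries numbered 1 (-0.30, adjusted p = 0.0672). Without arginine the difference was -0.18 (-0.37 to 0.02, adjusted p = 0.162), and it passed with the replicate block (adjusted p = 0.0403).

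Amd1 (chr10:40287458-40302186, minus strand) encodes adenosylmethionine decarboxylase, which commits S-adenosylmethionine to polyamines. In Wt cells it was at 55.2, 61.0 and 46.5 CPM unstarved, 43.7, 38.5 and 39.8 CPM without arginine and 50.5, 45.2 and 45.2 CPM without leucine. Arginine-starved libraries were the lowest and leucine-starved ones overlapped the unstarved group. The fall without arginine was 1.33-fold (log2 -0.42 ± 0.09, adjusted p = 0.00137). Without leucine the difference was -0.21 (95% interval -0.40 to -0.02, adjusted p = 0.0870), which passed without Wt_Unstarved replicate 3 (-0.31, adjusted p = 0.0107) and when genes of low counts were kept (-0.21, adjusted p = 0.0416).

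Gcn cells had 57.1, 62.1 and 62.4 CPM of Amd1 unstarved, 36.8, 35.2 and 44.4 CPM without arginine and 43.0, 46.4 and 57.0 CPM without leucine. All starved libraries lay below all unstarved ones. Without arginine Amd1 fell 1.56-fold (log2 -0.64 ± 0.12, adjusted p = 0.00178). Without leucine the difference was -0.30 (-0.56 to -0.04, adjusted p = 0.0980), which passed with the replicate block (-0.31, adjusted p = 0.00249), without Gcn_Leu replicate 3 (-0.45, adjusted p = 0.0205) and with no filter (-0.29, adjusted p = 0.0494). Its copy Amd2 had at most 1.96 CPM in any library, so the sum of both followed Amd1, from 62.3 CPM ± 2.78 in Gcn Unstarved to 40.0 CPM ± 4.74 in Gcn Arg (SD, n = 3).

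The direct comparison of leucine with arginine withdrawal asks which amino acid gave the lower level. In Wt cells 3 of 9 members differed, against 10.0% of all genes. Mat2a was higher after leucine withdrawal (5.25% of genes were), and Ahcyl1 and Mtrr were lower (4.76%). The Mettl16 difference was -0.18 (95% interval -0.30 to -0.06, adjusted p = 0.0627), and that difference passed with the replicate block (adjusted p = 0.00629) and with DESeq2 (adjusted p = 0.0310). Mat2b, at -0.13, passed with the block (adjusted p = 0.0486). In Gcn cells 1 of the 8 members other than Mat2a differed against 8.52% of genes, Ahcyl1, which was lower (3.88%, with 4.64% higher). With the replicate block 4 more passed there, when 4362 rather than 1395 of all 16369 genes passed. Amd1 (0.33, adjusted p = 0.00353) and Mat2b (0.14, adjusted p = 0.0448) were higher after leucine withdrawal, and Mtr (-0.23, adjusted p = 0.0212) and Mtrr (-0.20, adjusted p = 0.0169) were lower. The Amd1 difference, 0.34 without the block, passed with no filter as well (0.37, adjusted p = 0.0136).

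Between the unstarved genotypes 2 of 9 members differed against 32.8% of all genes, Mat2a being lower in Gcn (16.2% of genes were) and Mtr higher (16.6%). The other 7 members had differences from -0.17 for Ahcy to 0.16 for Amd1. For Mtap the difference was 0.15 (95% interval -0.01 to 0.31, adjusted p = 0.139) and passed without Gcn_Unstarved replicate 3 (0.23, adjusted p = 0.0281).

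In edgeR's test of the difference of changes between genotypes, 0 of the 8 members tested passed for arginine against 2.30% of genes (0.620% higher and 1.68% lower), and 0 of 9 for leucine against 0.821% (0.154% higher and 0.668% lower). At an unadjusted p under 0.05 there was 1 in each, Mat2b for arginine and Ahcyl1 for leucine. DESeq2 called 0 and 1, and over all 16924 genes 781 and 377. With the replicate block 1 of the 8 passed for arginine, Mat2b (-0.27, adjusted p = 0.00495), when 2505 rather than 390 of all genes passed. The widest 95% intervals were those of Ahcy, from -0.54 to 0.15 for arginine and from -0.29 to 0.38 for leucine, which span differences as large as the Ahcy change in Gcn Arg (-0.37).

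**Figure D4:**
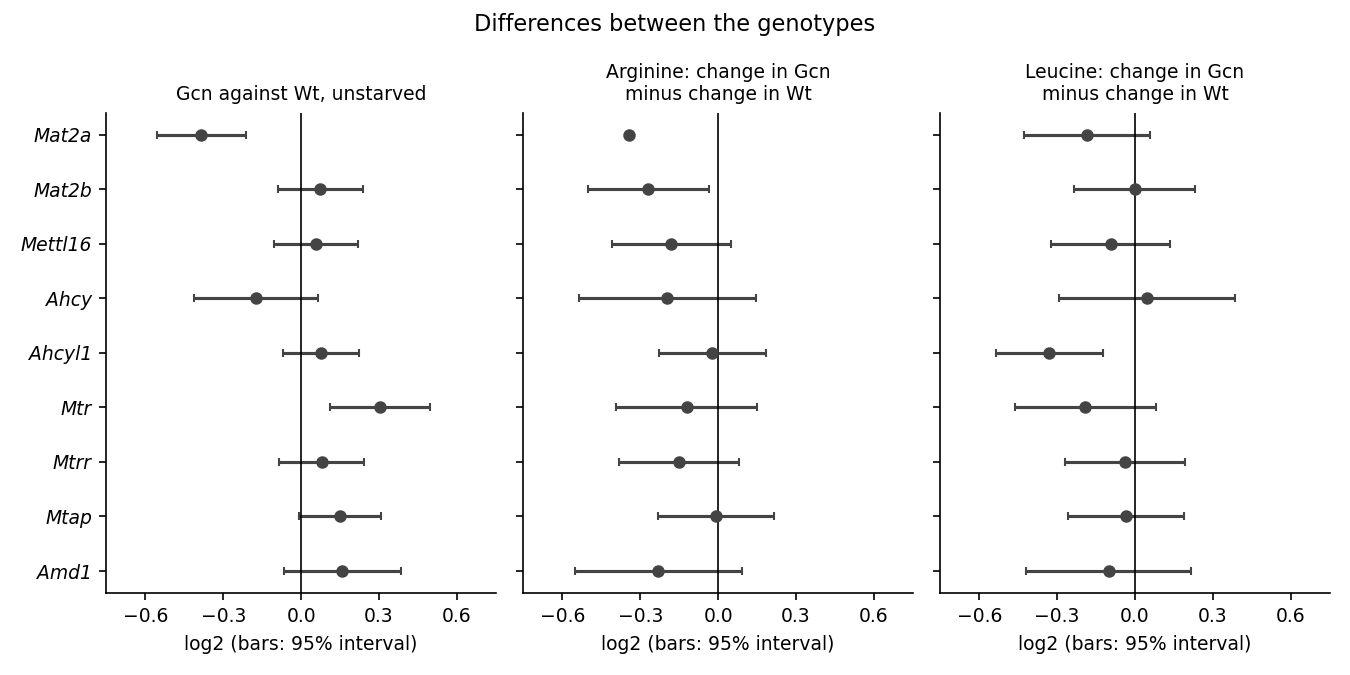
Differences between genotypes for the 9 members on a log2 axis, with points for the estimate and bars for the 95% interval (no bar for Mat2a in the arginine panel, where its value is a description): unstarved Gcn against unstarved Wt (left), and how much the starvation change of Gcn exceeded that of Wt for arginine (centre) and leucine (right). Mat2a lies at -0.39, -0.34 and -0.19, and Ahcyl1 at -0.33 in the leucine panel.

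Over the 18 libraries, the genes whose log2 CPM followed Mat2a most closely were Trip10 (Pearson r = 0.979), Ints13 (0.973), Traf4 (0.966), Pard6g (0.963) and Kctd15 (0.962). Trip10, for example, had group means of 80.4, 42.2 and 54.8 CPM in unstarved, arginine-starved and leucine-starved Wt cells and 73.2, 27.6 and 42.8 CPM in Gcn cells, the same order as Mat2a. Among the members r was 0.771 for Amd1, 0.756 for Mettl16, 0.733 for Ahcy, 0.344 for Mtap, 0.225 for Ahcyl1, -0.128 for Mat2b, -0.528 for Mtrr and -0.730 for Mtr. Ranked by r, Amd1 was number 846, Mettl16 number 957 and Ahcy number 1129 of 16923 genes. These values describe libraries that share groups and depth, and they carry no test.

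The genes around the cycle were followed in 6 lists, and counts below are of tested genes that rose or fell, with both Wt comparisons (arginine, then leucine) before both Gcn ones. In that order 20.9%, 15.5%, 14.3% and 11.7% of all genes tested rose, and 20.0%, 14.1%, 13.7% and 10.0% fell. The counts are a description, and a count near these shares says nothing particular about its list. Of 12 genes of transsulfuration, betaine use and related S-adenosylmethionine use, 8 passed the filter on low counts; 1, 1, 1 and 1 rose and 0, 1, 0 and 1 fell. Cth, which makes cysteine from cystathionine, was the riser in Wt (log2 0.66 and 0.27) and had differences of 0.11 and 0.00 in Gcn, where its unstarved level was lower than in Wt (84.1 against 154 CPM, adjusted p = 3.57e-07). In Gcn the riser was Cbs, the enzyme before Cth (0.42 and 0.36). Bmt2, an S-adenosylmethionine sensor, fell without leucine in both genotypes (-0.26 and -0.53).

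Cobalamin supply, which Mtr needs, was followed by 6 genes, of which 3, 3, 2 and 2 rose and 1, 0, 1 and 0 fell. Tcn2, a plasma carrier of cobalamin, rose by 0.59, 0.53, 0.98 and 0.82 on the log2 scale, and Abcd4, which acts in lysosomal export, by 0.56, 0.34, 0.94 and 0.41. Lmbrd1, its partner, rose by 0.70 and 0.46 in Wt, with differences of 0.15 and 0.07 in Gcn that did not pass. Cd320, the receptor for Tcn2 and named after its values were seen, was the gene that fell (-0.39 in Wt Arg and -0.37 in Gcn Arg). Its call in Gcn Arg was lost without Gcn_Arg replicate 1, without Gcn_Unstarved replicate 2 or 3 (adjusted p up to 0.128) and with library-size scaling.

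Among 10 polyamine genes 2, 1, 0 and 0 rose and 5, 5, 3 and 2 fell. The list median was -0.22, -0.21, -0.24 and -0.18, beside the medians near 0 over all genes. The list includes the Amd1 copy Amd2, whose values in Gcn Arg (-0.55) and Gcn Leu (-0.37) were the lowest of the list. Smox, a spermine oxidase, fell in Wt (-0.62 and -0.34) and had differences of -0.14 and -0.02 in Gcn. Oaz2, an antizyme, fell in Wt (-0.50 and -0.40) and in Gcn Arg (-0.42), and Azin1, an antizyme inhibitor, rose in Wt (0.48 and 0.32). The other calls, named after their values were seen, were falls of Odc1 and Srm in each comparison, falls of Oaz1 in Wt and a call of Paox as higher in Wt Arg. The Paox call was lost whichever of the 6 libraries was left out (log2 0.23 to 0.26, adjusted p up to 0.0993), leaving 1 riser in place of 2, and with DESeq2 and with no filter. The Odc1 call was lost in Wt Arg without Wt_Arg replicate 2 or Wt_Unstarved replicate 1, and in Gcn Leu, like that of Srm, without Gcn_Leu replicate 1 or Gcn_Unstarved replicate 2 or 3; Srm was also lost there without Gcn_Leu replicate 3. Library-size scaling ended the Odc1 calls in Wt Arg, Gcn Arg and Gcn Leu and the Srm call in Gcn Leu. With the replicate block 7 rather than 3 of these genes fell in Gcn Arg and 4 rather than 2 in Gcn Leu. Of all 16369 genes, 3959 rather than 2244 then fell in Gcn Arg and 3303 rather than 1641 in Gcn Leu. Of the 6 salvage genes downstream of Mtap, Enoph1 fell in Wt Arg (-0.26), Adi1 fell in Gcn Arg (-0.26), Got2 rose in Gcn Leu (0.26) and none changed in Wt Leu.

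The m6A machinery, which shares RNA methylation with Mettl16, was followed by 17 genes with the Mat2a splicing partners, of which 7, 7, 4 and 2 rose and 4, 1, 5 and 2 fell. Ythdc1, the nuclear m6A reader, rose by 0.29, 0.34, 0.56 and 0.57. Mettl14, a subunit of the main m6A writer, rose by 0.45, 0.32 and 0.55 in the first 3 comparisons and had a difference of 0.17 in Gcn Leu. Cpsf6, the cleavage factor subunit that partners Nudt21, had differences of -0.09 and 0.06 in Wt and fell in Gcn by 0.50 and 0.24 on the log2 scale. Ythdf2, a cytoplasmic m6A reader named after its values were seen, was the 1 gene that fell in Wt Leu and fell in the other 3 comparisons as well, though its Gcn Arg call was lost without Gcn_Arg replicate 3 or Gcn_Unstarved replicate 1 (adjusted p up to 0.0570) and with library-size scaling. With the replicate block 5 rather than 2 of the 17 rose in Gcn Leu, where 3348 rather than 1920 of all 16369 genes then rose.

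Of 20 DNA and protein methyltransferases, which spend S-adenosylmethionine, 4, 3, 0 and 2 rose and 6, 5, 5 and 5 fell. Their list median was -0.12, 0.02, -0.22 and -0.14. Setd1a fell in each comparison (-0.40, -0.27, -0.51 and -0.48), as did Setd1b (-0.33, -0.32, -0.63 and -0.61); both methylate histone H3 at lysine 4. The DNA methyltransferase Dnmt3a fell as well (-0.35, -0.22, -0.58 and -0.43). With the replicate block 10 rather than 6 fell in Wt Arg, 12 rather than 5 in Gcn Arg and 9 rather than 5 in Gcn Leu. Falls over all genes also rose with the block, from 3229 to 4069 of 16140 in Wt Arg. In Gcn Arg they went from 2244 to 3959 of 16369, and in Gcn Leu from 1641 to 3303.

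Single libraries decided some of these calls. Of 59 calls of the named context genes, 40 held when each library of the groups was left out in turn and 19 did not. Among those given here, 3 calls in Wt Leu were lost without 1 library: Dnmt3a without Wt_Leu replicate 1, Azin1 without Wt_Unstarved replicate 3, and Bmt2 without Wt_Leu replicate 3 or Wt_Unstarved replicate 1 or 2. Setd1b was lost in Wt Arg and in Wt Leu without any 1 library of the groups other than replicate 3 of the starved group. In Gcn Arg the fall of Adi1 was lost without any 1 library other than Gcn_Arg replicate 2, and that of Gm4737 as given above. In Gcn Leu the calls of Abcd4, Bmt2 and Cbs were lost without Gcn_Unstarved replicate 2, that of Bmt2 also without Gcn_Leu replicate 1, and that of Cbs also without Gcn_Leu replicate 2 or Gcn_Unstarved replicate 3. Got2 was lost there without any 1 library other than Gcn_Leu replicate 3, and Cpsf6 without any 1 other than Gcn_Unstarved replicate 3. Library-size scaling also ended the calls of Setd1b in Wt Arg and Wt Leu, of Adi1 in Gcn Arg and of Cpsf6 in Gcn Leu, and DESeq2-type size factors that of Setd1b in Wt Leu. Without the 3 Gcn libraries numbered 1 the calls of Adi1 in Gcn Arg and of Got2 and Cpsf6 in Gcn Leu were lost, the last 2 also with no filter, and Cpsf6 in Gcn Leu also when fitted on those groups alone.

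Some counts over a list moved by more than 1.5 times in the same way. The m6A genes that rose in Wt Arg numbered 4 without Wt_Arg replicate 1 or 2 or Wt_Unstarved replicate 1 or 3. In Wt Leu they numbered 3 or 4 without Wt_Leu replicate 1 or 3 or Wt_Unstarved replicate 1 or 3, and those that fell in Gcn Arg numbered 2 or 3 without Gcn_Arg replicate 2 or 3 or any 1 of the 3 Gcn_Unstarved replicates. In Gcn Leu the 2 m6A risers became 1 without Gcn_Leu replicate 2 or Gcn_Unstarved replicate 2 or 3 and 3 without Gcn_Leu replicate 1, and the 2 that fell became 1 without any 1 library other than Gcn_Unstarved replicate 3. Among the methyltransferases the risers in Wt Arg numbered 1 or 2 without Wt_Arg replicate 1 or Wt_Unstarved replicate 1 or 3, and those that fell in Wt Leu 1 or 3 without Wt_Leu replicate 1 or Wt_Unstarved replicate 1 or 3. Their 2 risers in Gcn Leu became 1 without Gcn_Leu replicate 1 or any 1 of the 3 Gcn_Unstarved replicates. The polyamine genes that fell in Gcn Leu numbered 0 or 1 without Gcn_Leu replicate 1 or 3 or Gcn_Unstarved replicate 2 or 3, and 0 with library-size scaling.

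**Figure D5:**
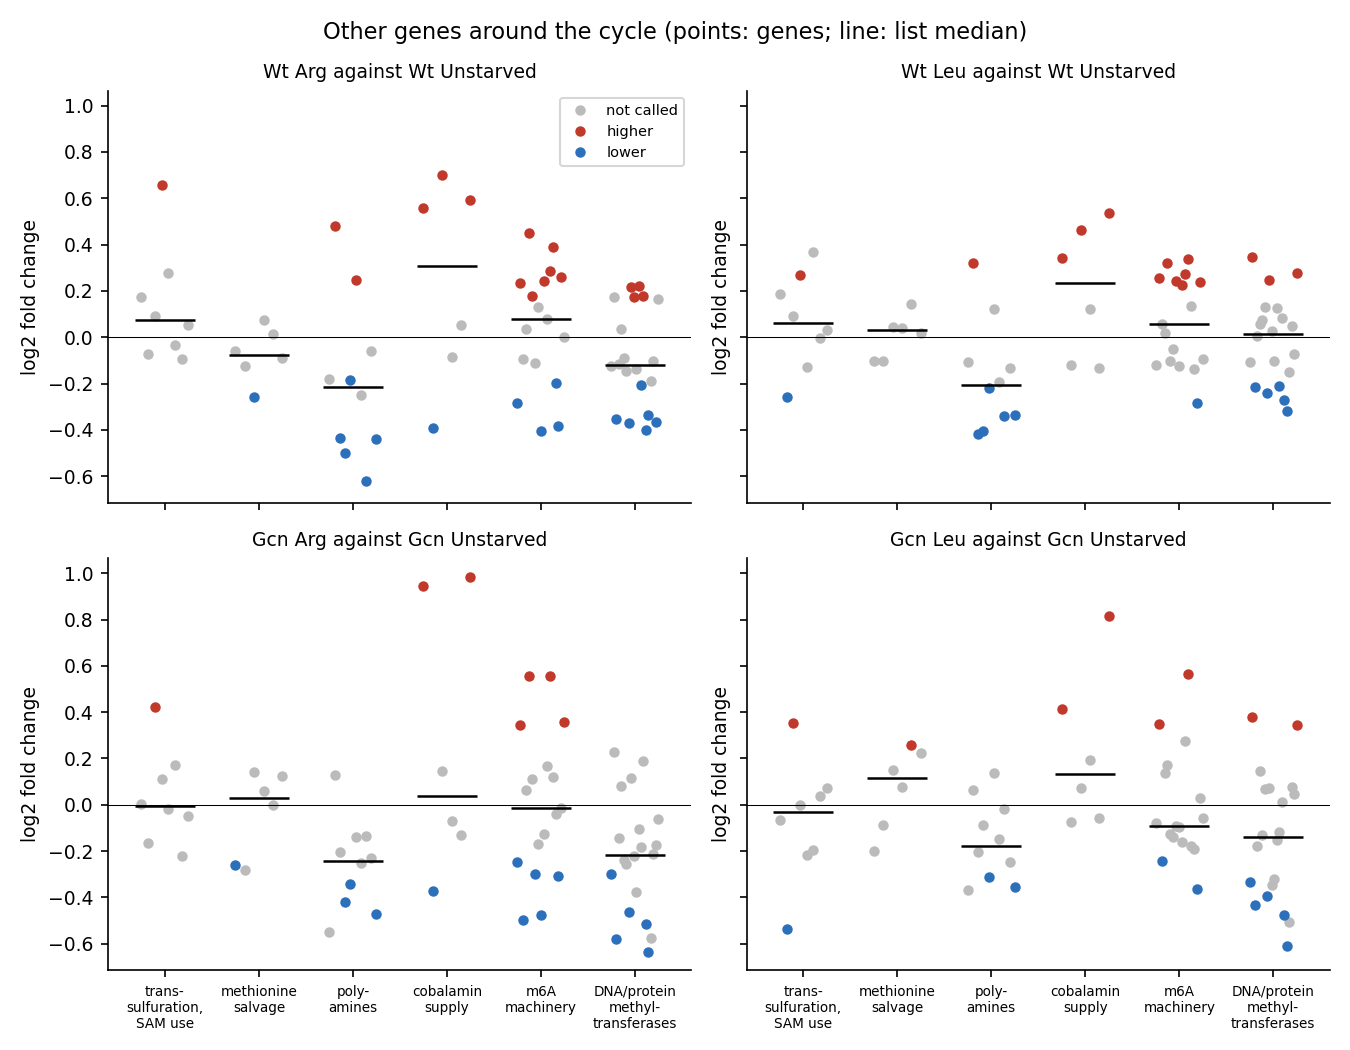
Log2 fold change (y axis) of the genes in 6 lists around the cycle, 1 panel for each starvation comparison; points are genes, red for higher, blue for lower and grey for not called, and the black line is the list median. The polyamine medians lie below 0 in all 4 panels.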

How the data were processed

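The 18 poly(A) RNA libraries were read in pairs of 43 bases in 1 sequencing run. The authors deposited whole-number counts per Ensembl gene, in 1 table for each genotype. Their processing notes name STAR 2.7.4a, HTSeq and GRCm38, with no annotation release or strand setting. Library totals ranged from 14.8 to 38.8 M counts, and the lowest count of a member in any library was 382.

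Groups followed the sample titles. Genes were filtered with edgeR's default rule, scaled by TMM and tested with edgeR 4.0.16 (quasi-likelihood, R 4.3.3), with adjustment over all 16140 genes (Wt), 16369 genes (Gcn) or 16924 genes (both). The difference of changes is an interaction term. The method was tested on simulated data. Members, lists and named genes (all members, and per list the 3 called genes with the largest change) were chosen with earlier results of these data known; 1 listed gene is not reported here.

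Libraries with the same replicate number deviated together in Gcn cells (correlations of 0.186 to 0.523) and less so in Wt cells (0.054 to 0.320), but not between genotypes (-0.159 to 0.029). The numbers were therefore taken to pair the libraries except in Wt Leu against Wt Unstarved, the unstarved genotypes and the leucine difference of changes. In Wt the correlations with the unstarved libraries were 0.111 to 0.231 for Wt Arg and 0.054 to 0.230 for Wt Leu, so that split is narrow. The tests reported have no replicate block, also where the numbers were taken to pair the libraries. For members, the blocked value stands beside a result whose call it changes, or in the last section where the numbers were not taken to pair. Alternatives were 2 other scalings, no filter, only the groups compared, DESeq2 1.42.0, the replicate block, each library left out, and the Gcn libraries numbered 1 left out. Symbols and sites came from GENCODE vM21 (GRCm38).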

Additional observations from a re-analysis of the deposited data

Results flagged for a closer look

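Of the 19 named genes around the cycle, 4 changed differently in the genotypes after arginine withdrawal, against 2.30% of all genes, by edgeR's test of the difference of changes (change in Gcn minus change in Wt, log2 scale). The named genes were chosen for the size of their starvation changes, so the 2 shares are not comparable. Of the 8 members tested, 0 passed, and Mat2b passed with the replicate block (-0.27, adjusted p = 0.00495). The difference was 0.48 for Smox (95% interval 0.23 to 0.73, adjusted p = 0.0362), which fell in Wt. It was -0.56 for Cth (-0.83 to -0.28, adjusted p = 0.0274) and -0.56 for Lmbrd1 (-0.85 to -0.27, adjusted p = 0.0318), which rose in Wt. For Cpsf6, which fell in Gcn, it was -0.41 (-0.60 to -0.22, adjusted p = 0.0155). Over 18 alternatives each kept its direction, and the number that passed the test was 7 for Smox, 10 for Cth, 9 for Lmbrd1 and 14 for Cpsf6.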

How the results depend on the processing

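Of 78 tested member results 24 passed the test, and 19 of those passed under every alternative run; none of the 78 changed direction in a called value. The 5 lost under at least 1 alternative were Ahcy in Gcn Arg, Mat2b and Mtap in Wt Arg, Mtap in Gcn Leu and Mtr between the unstarved genotypes. Of the 54 not called, 17 passed under at least 1 alternative, 7 of them with the replicate block alone.

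With the replicate block, the genes called rose from 4583 to 7602 in Gcn Arg, from 3561 to 6651 in Gcn Leu, from 1615 to 3328 for Wt Leu against Arg, from 1395 to 4362 for Gcn Leu against Arg, from 390 to 2505 for the arginine difference of changes and from 139 to 1878 for the leucine one. Where the numbers were not taken to pair the libraries, the block called Ahcy (adjusted p = 0.0153), Mtr (0.0162) and Amd1 (0.0267) in Wt Leu, Mtap between the unstarved genotypes (0.0309) and Ahcyl1 in the leucine difference of changes (0.00422). Beside these and the values in the report, it changed no other call of a member.

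With no filter the differences of changes numbered 777 (arginine) and 353 (leucine), and with DESeq2 781 and 377. Without 1 library at a time the counts were 5513 to 6300 in Wt Arg, 3749 to 4537 in Wt Leu, 3212 to 4057 in Gcn Arg, 2171 to 3163 in Gcn Leu, 871 to 1258 for Wt Leu against Arg, 710 to 1082 for Gcn Leu against Arg, 4355 to 5215 between unstarved genotypes, and 187 to 525 and 74 to 257 for the differences of changes. Library-size scaling moved the median of all genes in Gcn Arg from -0.01 to 0.11. It moved the higher and lower calls from 2339 and 2244 to 3449 and 1397 in Gcn Arg, from 1920 and 1641 to 2609 and 1066 in Gcn Leu, from 760 and 635 to 610 and 781 for Gcn Leu against Arg, and from 105 and 285 to 298 and 162, and 26 and 113 to 80 and 77, for the differences of changes. Every member had at least 382 counts in every library, and each group had 3 libraries.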
